A study of Mus musculus with 2 samples.

Results

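The mouse miRNAs mmu-miR-103 and mmu-miR-107, called miR-103 and miR-107 here, are near-identical microRNAs, small RNAs that lower the output of messenger RNAs carrying a match to the miRNA's seed, the bases 2 to 8 from its 5' end. They were taken by name from the 566 mouse miRNA names on an Agilent miRNA array, which held 1 probe set for each, so the pair makes up 2 of 566 names. The study measured 2 RNA samples of C57BL/6J mice, each labelled with Cy3 and run on 1 single-colour array. One sample was total bone marrow (total BM), the unsorted mixture of developing and mature blood cells. The second came from LKS cells, which lack lineage markers, carry Kit and Sca1, and were purified from marrow by magnetic columns before fluorescent sorting. This fraction holds haematopoietic stem cells and early progenitors. Neither group carried a transgene or treatment in the labels, and the number of animals behind each RNA is not stated in the labels. Each group has 1 array and no replicate, so differences are described for these 2 arrays and carry no p-value.

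Both miRNAs are processed from introns of pantothenate kinase genes, whose enzymes catalyse the first step of coenzyme A synthesis. In mouse liver and fat, miR-103 and miR-107 are known to lower insulin sensitivity, in part by targeting caveolin-1, a component of the membrane pits that hold the insulin receptor. In other cells they are known to target Dicer, the enzyme that cuts miRNAs from their hairpins, and miR-107 is known to target the cell cycle kinase CDK6 in human cells.

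The mature sequences are shown because the pair differs by 1 base of 23, and every result below rests on telling these molecules apart. Sequences are from RefSeq on GRCm38.p6, where both names were matched, and the array files name no genome build. In the first lines capitals mark the seed, which is the same in both.
miR-103-3p: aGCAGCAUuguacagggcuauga
miR-107-3p: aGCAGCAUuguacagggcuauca
In the next lines the capital marks the base that differs, G22C from miR-103 to miR-107 with positions counted from the 5' end, next to the last base.
miR-103-3p: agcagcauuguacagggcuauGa
miR-107-3p: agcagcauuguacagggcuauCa

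Mature miR-103 comes from 2 loci and miR-107 from 1, so the miR-103 signal cannot be assigned to a locus. Mir103-1 lies within the span of Pank3 at chr11:35782396-35782481 on the plus strand. Mir103-2 lies within Pank2 at chr2:131288052-131288137 on the plus strand, and Mir107 within Pank1 at chr19:34820687-34820773 on the minus strand. The hairpins are shown, with the mature 3' arm in capitals, to show that both Mir103 hairpins yield the same molecule from different loops.
Mir103-1: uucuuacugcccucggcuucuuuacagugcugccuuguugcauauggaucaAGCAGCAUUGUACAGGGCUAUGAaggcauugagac
Mir103-2: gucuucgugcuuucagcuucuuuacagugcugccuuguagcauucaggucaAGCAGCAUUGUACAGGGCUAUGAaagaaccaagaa
Mir107: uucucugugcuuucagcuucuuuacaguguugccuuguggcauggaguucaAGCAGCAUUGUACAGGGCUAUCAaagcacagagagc
The array table held 0 probes for the opposite, 5' arms of these hairpins, which were not analysed here.

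The LKS array was dimmer as a whole, and markers of cell types differed between the 2 samples. Of 566 mouse miRNAs, 145 were detected on total BM, 98 on LKS and 93 on both, and signals of detected miRNAs summed to 52484 and 23256 intensity units. Ratios were therefore taken after dividing each array by its 75th percentile over these 93 miRNAs, which raised every log2 ratio of LKS to total BM by 0.72. All 3 erythroid miRNAs on the list were called present in total BM, against 0 in LKS cells. By comparison, 52 of the 145 mouse miRNAs detected in total BM were called there only, and 5 of the 98 detected in LKS cells there only. Of 6 stem and progenitor miRNAs, all 6 were detected in LKS cells, 4 of them in total BM as well and 2 in LKS cells only. None of 5 stromal miRNAs was detected on either array, which also held for 416 of all 566 mouse miRNAs. The neutrophil miRNA miR-223 read 7250 ± 641 intensity units in total BM and 822 ± 73.0 in LKS cells, where ± gives the error deposited with a signal. The part of a difference in cell types in the results for miR-103 and miR-107 was not tested. In bulk RNA, fewer cells of a type and less RNA per cell cannot be told apart.

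MiR-107 was brighter in LKS cells than in total BM, and miR-103 was not. Both were detected on both arrays. The probe set mmu-miR-103 read 190 ± 16.9 intensity units with total BM RNA and 118 ± 10.7 with LKS RNA. The probe set mmu-miR-107 read 190 ± 15.3 with total BM RNA and 276 ± 21.7 with LKS RNA. In the signals as deposited the members thus differed in opposite directions, miR-103 by -3.64 and miR-107 by 3.21 combined errors of the signals. The unscaled log2 ratio of miR-103, -0.70, lay near the median of the 93 miRNAs detected on both arrays, -0.65. Each deposited error was between 7.88% and 9.13% of its signal, and every signal was at least 10.9 times its error.

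**Figure D1:**
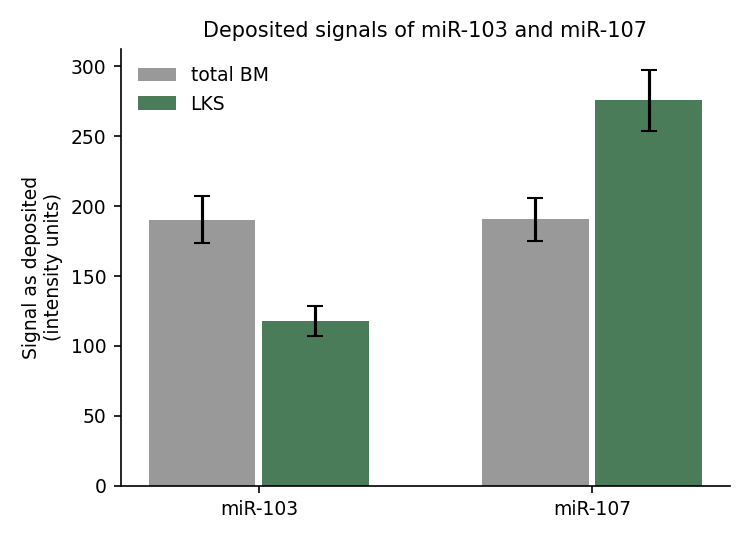
Signals of miR-103 and miR-107 as deposited, in intensity units, for total BM (grey) and LKS cells (green), with 1 array per bar and the deposited error of the signal as error bar. In total BM both probe sets read 190, and in LKS cells miR-103 read 118 and miR-107 read 276; probe sets differ in affinity, so equal signals do not show equal amounts.

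After scaling, miR-107 was 2.39-fold higher in LKS cells, with a log2 ratio (LKS minus total BM) of 1.26 ± 0.16. The error of a log2 ratio was propagated from both deposited errors and covers technical error only. With 1 array per sample, variation between repeat arrays of a sample was not measured and is not part of it. MiR-103 had a scaled log2 ratio of 0.03 ± 0.18, which lay within its error of 0. Its direction turned with the scaling: the log2 ratio was -0.70 without scaling and 2.14 when arrays were scaled on all miRNAs. That last divisor lay near background on LKS, where 98 of 566 mouse miRNAs were detected and 406 read below 0. MiR-107 remained above 0 under every scaling tried, but its ratio was 1.45-fold without scaling (log2 ratio 0.53) and its log2 ratio was 0.61 in the authors' deposited value table, both under 2-fold. By comparison, 17 of the 93 shared miRNAs (18.3%) had a scaled ratio at least 2-fold in favour of LKS cells and 17 (18.3%) at least 2-fold in favour of total BM, so 1 of 2 members past 2-fold is not a count on which to set the pair apart. In the signals as deposited these shares were 7.53% higher and 38.7% lower, with neither member past 2-fold. The median log2 ratio of all 93 was 0.07 after scaling and -0.65 before it.

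The unequal change of the pair did not depend on a scaling constant, because a constant cancels when the ratio of miR-103 is subtracted from that of miR-107. This difference of log2 ratios was 1.23 ± 0.25, or 5.02 times its combined error. Within an array, the signal of miR-107 divided by that of miR-103 came to 1.00 ± 0.12 for total BM and to 2.35 ± 0.28 for LKS cells, a 2.34-fold difference between the samples. Scalings that depend on the signal level gave smaller differences, 0.99 with quantile normalization and 1.11 with loess. The value table gave 1.19, as did recentring the background of each array. Probe sequences were not used here, and how far each probe set also binds the other miRNA was not tested.

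**Figure D2:**
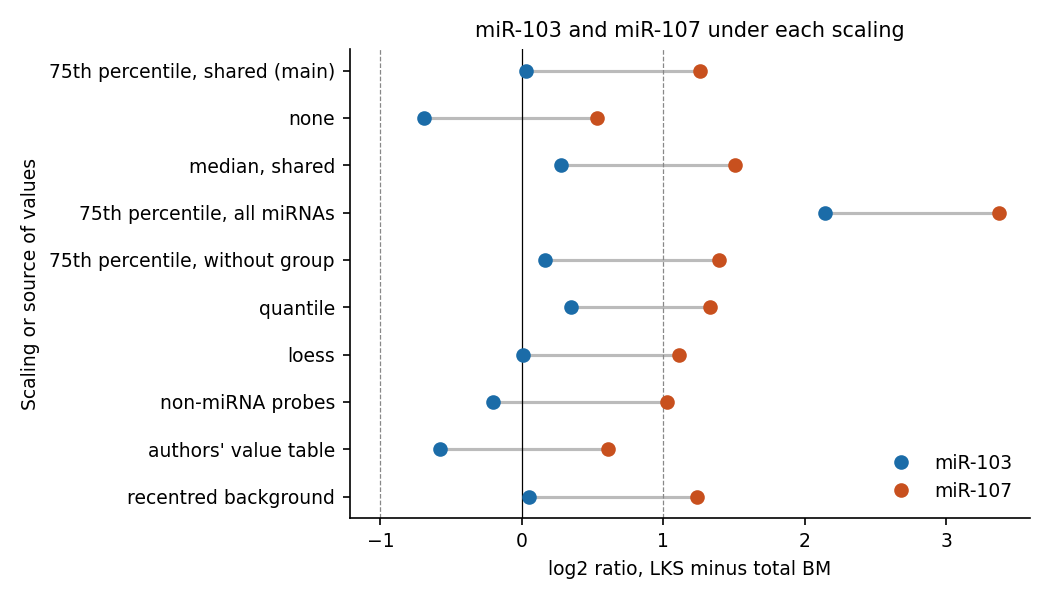
Log2 ratio of LKS to total BM for miR-103 (blue) and miR-107 (orange) under the main scaling and each of 9 alternatives, with dashed lines at 2-fold. MiR-103 ran from -0.70 to 2.14 and miR-107 from 0.53 to 3.37, with both highest values from scaling on all miRNAs, detected or not. The distance between them lay between 0.99 and 1.23, and is fixed at 1.23 wherever the scaling is a constant.

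The order of the ratios placed the members apart as well. Among the 93 shared miRNAs, miR-107 had the 13th highest log2 ratio and miR-103 the 49th. The shared miRNAs with ratios nearest to that of miR-103 were miR-26b (0.05 ± 0.17), miR-98 (0.00 ± 0.40) and miR-30b (-0.00070 ± 0.36). MiR-26b belongs to a family known to target the histone methyltransferase Ezh2, and miR-98 to the let-7 family. Those nearest to miR-107 were miR-92a of the miR-17-92 cluster (1.27 ± 0.19), miR-322 (1.23 ± 0.16) and miR-10a of a Hox gene cluster (1.33 ± 0.17). Likeness here is the absolute difference of log2 ratios over only 2 arrays, at most 0.03 for the neighbours of miR-103 and 0.07 for those of miR-107, all within the errors. Ordered by signal among miRNAs detected on each array, miR-107 stood 45th of 145 in total BM, between miR-671-5p (200 intensity units) and miR-103, and 22nd of 98 in LKS cells, between miR-25 (310) and miR-130b (263). MiR-103 stood 46th, above miR-322 (165), and 35th, between miR-142-3p (126) and miR-652 (110). These positions describe probe brightness and do not rank abundance.

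MiR-103 and miR-107 belong to the miR-15 and miR-107 group, whose members carry the letters AGCAGC at their 5' end and are known to share targets in cell cycle control, such as cyclins. AGCAGC was found in the first 7 bases of 13 of 1679 mature mouse miRNA names in RefSeq. The other 7 group members on the array that were listed for comparison are shown by seed, in capitals, because the one-base shift of AGCAGC sets the seed of miR-103 and miR-107 apart from theirs. All 7 were matched in RefSeq. The first 6 have the seed of miR-15 and miR-16, and miR-503 differs from it in the last seed base.
miR-15a-5p: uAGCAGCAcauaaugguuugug
miR-15b-5p: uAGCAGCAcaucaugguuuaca
miR-16-5p: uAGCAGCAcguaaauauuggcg
miR-195a-5p: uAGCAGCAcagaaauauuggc
miR-322-5p: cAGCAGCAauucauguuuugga
miR-497a-5p: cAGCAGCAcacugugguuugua
miR-503-5p: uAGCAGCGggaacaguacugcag

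The rest of the group did not share 1 direction, and miR-322 alone lay close to miR-107. Of the 7, 5 were detected on both arrays. MiR-322, of an X-linked cluster with miR-503, read 165 ± 13.1 in total BM and 235 ± 18.7 in LKS cells and was 2.35-fold higher after scaling, against 2.39-fold for miR-107. Without scaling both were under 2-fold higher, at log2 ratios of 0.51 and 0.53. MiR-16, known to target cyclins and Bcl2 in human cells, read 731 ± 58.1 in total BM and 200 ± 16.5 in LKS cells and was 2.21-fold lower (log2 ratio -1.15 ± 0.17). Its cluster partner miR-15a lay at -0.95 ± 0.15, miR-15b at -0.54 ± 0.18, and miR-503 at -0.61 ± 0.78 from a faint LKS signal of 5.94 ± 2.92. The median of these 5 was -0.61, beside 0.07 for all shared miRNAs, with 1 of 5 past 2-fold higher and 1 of 5 past 2-fold lower, beside 18.3% each way for all shared miRNAs. Without scaling 0 of the 5 were past 2-fold higher and 4 past 2-fold lower, beside 7.53% and 38.7%. This median was below 0 under every alternative except scaling on all miRNAs, which raised it to 1.501. MiR-103 lay below miR-322 and above the other 4, although its distance from miR-503 was within the error of that faint probe set.

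MiR-195 and miR-497, which share a cluster, were detected in total BM only. These 2 of the 7 stand beside 52 of the 145 mouse miRNAs detected in total BM, so the count does not set the group apart. MiR-195 read 5.61 ± 2.94 in total BM and -3.42 ± 2.70 in LKS cells, and miR-497 read 6.98 ± 2.94 and -2.95 ± 2.70. Against the lowest detected LKS signal, 2.91 intensity units, they were at least 1.17-fold and at least 1.45-fold lower in LKS cells after scaling. Without scaling they were at least 1.93-fold and 2.40-fold lower. That signal came from another probe set and is not a general detection limit, as miR-451 read 3.67 ± 2.72 in LKS cells without a call. With median scaling miR-195 had no bound above 1, so whether a lower level in LKS cells could be bounded depended on the scaling. The error of the total BM signals is not part of these bounds, and the signals were only 1.91 and 2.38 times their errors.

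**Figure D3:**
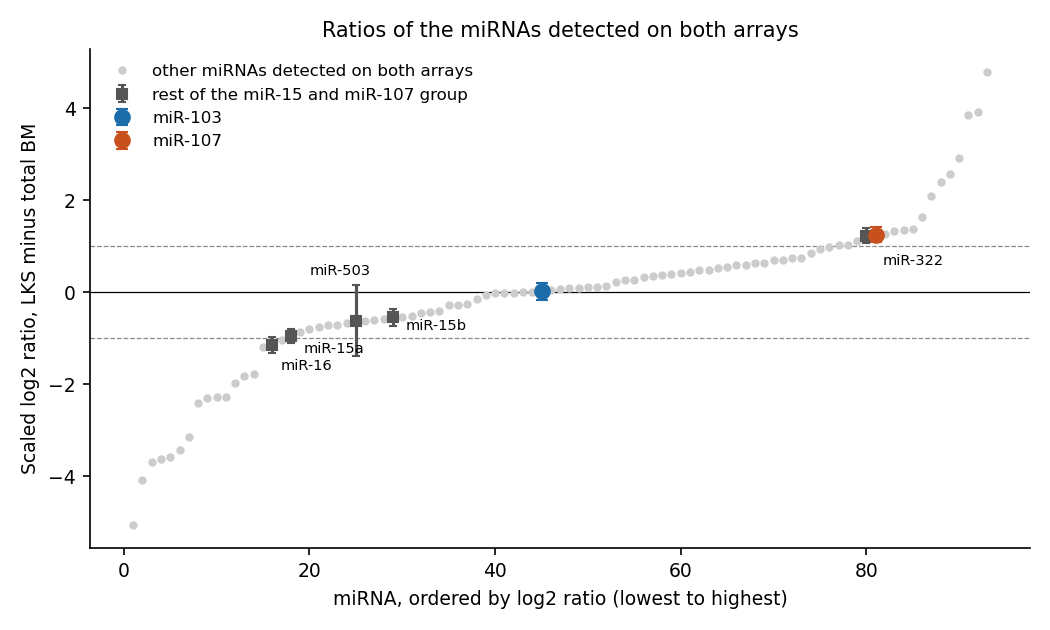
Scaled log2 ratio of LKS to total BM for the 93 miRNAs detected on both arrays, ordered from lowest to highest, with dashed lines at 2-fold and error bars of the propagated technical error for named miRNAs. MiR-107 (orange) lies beside miR-322 at 1.26 and 1.23, miR-103 (blue) lies at 0.03, and miR-16, miR-15a, miR-503 and miR-15b lie below it.

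Of 14 other miRNAs on the array with known roles in insulin, lipid or glucose metabolism, 7 were detected on both arrays and 7, which gave no ratio, on neither. Of all 566 mouse miRNAs, 93 were detected on both arrays and 416 on neither. After scaling, 0 of the 7 with a ratio were at least 2-fold higher or lower, beside 18.3% each way for all shared miRNAs. Without scaling 0 of the 7 were at least 2-fold higher and 2 at least 2-fold lower, beside 7.53% and 38.7%. Their median log2 ratio was 0.07, equal to that of all shared miRNAs, because miR-33 was the middle value of both lists. MiR-107 lay above all 7, at 1.26 against a highest value of 0.54 ± 0.20 for miR-29b. MiR-27a, known to restrain fat cell formation, had -0.58 ± 0.17, miR-29c -0.52 ± 0.18, and miR-29a, known to lower insulin signalling in fat and liver cells, 0.40 ± 0.19. MiR-33, encoded in the sterol regulator gene Srebf2, had 0.07 ± 0.89 with faint readings, 8.49 ± 2.95 for total BM and 5.41 ± 2.78 for LKS cells. The 2 that were over 2-fold lower without scaling were miR-27a and miR-29c, at -1.31 and -1.25, and the list median ran from -0.65 without scaling to 2.19 with scaling on all miRNAs. The liver miRNA miR-122 and the pancreatic islet miRNA miR-375, which act in the same physiology, were not detected on either array.

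The difference within the pair was also set beside those of other near-identical miRNAs. Sequences were matched for 79 of the 93 shared miRNAs. The other 14, among them miR-23b and miR-30d, did not enter, so the list of pairs is incomplete and gives no rank. Of the 79, 20 pairs had at most 2 mismatches from the 5' end and lengths within 1 base. MiR-130a against miR-130b and let-7c against miR-98, each with 2 mismatches, differed more than miR-103 and miR-107, with absolute differences of log2 ratios of 3.10 ± 0.35 and 1.36 ± 0.44. In 8 of the 20 pairs the lengths were equal and 1 base differed. Beside the 1.23 of miR-103 and miR-107, the other 7 of these ran from 0.06 ± 0.25 for let-7a against let-7f to 0.92 ± 0.26 for miR-29a against miR-29c, with a median of 0.53. In 3 of these 7 the difference was over 2 combined errors. Some of the pairs share a member, and the comparison was chosen after the values had been seen, so it is a description of these arrays without a test.

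**Figure D4:**
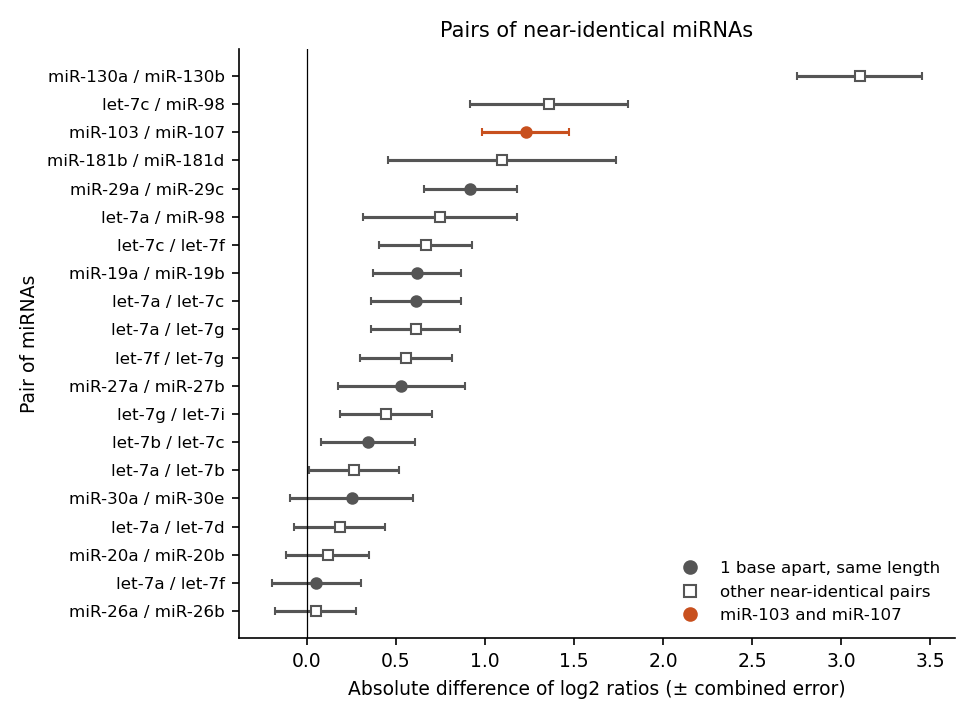
Absolute difference of log2 ratios (LKS to total BM) for the 20 pairs of near-identical miRNAs found among the 79 shared miRNAs with a matched sequence, with the propagated technical error of the difference. The miR-103 and miR-107 pair (orange) lies at 1.23, below miR-130a and miR-130b at 3.10 and let-7c and miR-98 at 1.36; filled circles are pairs 1 base apart with the same length.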

How the data were processed

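The authors deposited linear intensity values (total gene signal, its error and a detection call of 0 or 1, per the file headers). The values were background-subtracted: 315 and 406 of the mouse signals were below 0 on total BM and LKS. They were treated here as not scaled between arrays, which the values below 0 do not show. A second table deposited by the authors holds log2-like values, with column medians of 1.46 and 1.00. The scaling constants of that table, the scanner, the extraction software and the rule of the detection call were not given in the sources used here. For each array the 75th percentile of the 93 mouse miRNAs with a call on both arrays (399 on total BM, 242 on LKS) served as divisor. Log2 ratios, LKS minus total BM, were computed with Python 3.11.15, numpy 2.4.6 and pandas 2.3.3. A miRNA counted as higher or lower at 2-fold. For a miRNA detected in total BM only, the bound used the lowest detected LKS signal, or the probe's own signal plus 2 errors if higher. Loess used a span of 0.75 in statsmodels 0.14.6. The calculation was tested on simulated data. There the divisor came only from miRNAs simulated without a change, so the choice of divisor was not tested.

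The 2 members, the lists, the rules for naming miRNAs and the alternatives were chosen with earlier results of these data known. Named miRNAs were the members, the miR-15 and miR-107 group, the up to 4 metabolic miRNAs with the largest absolute ratio, the 3 shared miRNAs nearest in ratio to each member, and neighbours in signal. MiR-33, miR-122, miR-375 and the near-identical pairs were named after their values were seen. Arms of older array names were assigned from general knowledge, and the comparison of near-identical pairs took the 79 shared miRNAs whose sequence was matched. With 1 array per group, the number of arrays limits the precision.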

Additional observations from a re-analysis of the deposited data

How the results depend on the processing

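No paired analysis was possible because there was 1 array for each sample type, which also meant that leaving out an array left no comparison. The difference between miR-107 and miR-103 could not move from 1.23 in the unscaled, percentile, median and non-miRNA probe settings, because a constant cancels. Where it could move, it was 0.99 with quantile normalization, 1.11 with loess and 1.19 with the value table and with recentred background. Each of these lay less than the error of 0.25 from 1.23. Without scaling, log2 ratios were -0.70 for miR-103, 0.53 for miR-107, -1.34 for the median of the miR-15 and miR-107 group and -0.65 for that of the metabolic list, with 7 miRNAs at least 2-fold higher in LKS cells and 36 lower. The authors' value table gave -0.58, 0.61, -1.19 and -0.31, with 7 higher and 28 lower. With all miRNAs, detected or not, behind the 75th percentile they were 2.14, 3.37, 1.501 and 2.19, with 77 higher and 7 lower. This percentile lay near background on LKS. Median scaling gave 0.27, 1.504, -0.37 and 0.32, and the 6 non-miRNA probes gave -0.20, 1.03, -0.84 and -0.15. Quantile normalization gave 0.35 for miR-103, loess gave -0.93 for the miR-15 and miR-107 group, and recentred background gave 0.32 for the metabolic list. A 1.5-fold threshold gave 28 higher and 27 lower, and a 4-fold threshold 7 and 11. Counting the 158 miRNAs with signals above 0 on both arrays, instead of the 93, gave 22 higher and 39 lower. The cause of these shifts is the scaling constant for the unscaled, percentile, median and non-miRNA probe settings. For the other thresholds and the signals above 0 it is the changed cutoff or set of miRNAs. For the remaining settings the cause was not tested. Differences between animals or sorts cannot be assessed with 1 array per group.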
